A study of Arabidopsis thaliana with 12 samples.

Results

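The genes described here are those of the Arabidopsis mitochondrial genome, taken as every gene ID in the count tables that starts with ATMG. There were 152 such IDs among 36917 IDs in all, and 54 of them had 10 or more counts in at least 3 libraries. Another 37 had some counts but stayed under that limit, and 61 had no count in any library. The 54 genes held between 99.7% and 99.9% of all mitochondrion-encoded counts in each library. The nearest genes inside the limit, ATMG00010 and ATMG01080, had 10 counts in their third-highest library, and the nearest outside, such as ATMG00380, had 9.

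RNA came from whole seedlings, 4 days old, and each of the 4 genotypes was sequenced in 3 libraries. The mutants were gun1 (allele gun1-103, T-DNA line SAIL_742_A11), fug1 (allele fug1-3, line SAIL_209_E08) and the double mutant gun1 fug1 (gun1-103 with fug1-3), set against wild type Col-0. All seedlings were raised on sucrose-containing medium in long days at 22 °C after a cold dark period, and each mutant allele is represented by 1 line. The series addresses how GUN1 and FUG1 relate in plastid protein homeostasis.

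GUN1 is a plastid protein with pentatricopeptide repeats that acts in signalling from the plastid to the nucleus, and FUG1 is the translation initiation factor IF-2 of the plastid. Neither is a known part of the mitochondrion. Plant mitochondria keep a small genome that codes for core subunits of the respiratory chain and of the ATP synthase, for proteins that attach heme to c-type cytochromes, for some ribosomal proteins, and for ribosomal and transfer RNAs. The remaining subunits of the same complexes are made from nuclear genes and imported. Mitochondrial transcripts are spliced, edited and trimmed, and their level depends on decay as well as on transcription.

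The libraries held between 8519197 and 12360838 counts. Mitochondrion-encoded genes took between 39642 and 89296 of them in 11 libraries. The third gun1 fug1 library stood apart, with 3530 mitochondrion-encoded counts, only 56 mitochondrial IDs with a count and a TMM scaling factor of 0.0723, against factors of 0.80 to 2.05 in the others. It differed over all genes too, with no count at 23881 of the 36917 IDs, against 13359 to 16417 in the others. Its nuclear IDs held 5366579 counts, against 1526331 to 3845832. Results that rest on it are therefore given with and without it. GUN1 had 7.20 to 9.44 scaled CPM (the level after dividing by the library's TMM-scaled size) in gun1 and 7.89 to 10.7 in gun1 fug1, against 29.6 to 38.7 in wild type, and FUG1 had 5.70 to 11.2 in fug1 and 8.45 to 15.6 in gun1 fug1, against 26.3 to 44.4 in wild type. Marker genes of tissues also moved with genotype. The summed level of 8 root markers was 3.03 to 34.8 scaled CPM in gun1, 14.1 to 24.1 in fug1 and 22.8 to 39.7 in the double mutant, against 1.27 to 4.58 in wild type, and 1, 5 and 6 of the 7 tested were called higher in gun1, fug1 and gun1 fug1. The summed level of 6 seed storage and embryo markers was 37.3 to 77.8 in gun1, 35.0 to 51.8 in fug1 and 56.2 to 79.2 in the double mutant, against 5.70 to 15.4 in wild type, and 3, 4 and 3 of the 4 tested were called higher. The root marker AT4G19690 was at 0 in all gun1 fug1 libraries and the seed marker AT4G27140 in all wild-type libraries. Beside these calls, 5.94%, 17.8% and 21.9% of all genes tested were called in either direction in gun1, fug1 and gun1 fug1. None of the 3 leaf markers was called. The part of the tissues behind these markers in the results was not tested. In whole seedlings, a change in the number of cells of a type cannot be told apart from a change in RNA per cell.

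A near-identical copy of the mitochondrial genome sits in the nuclear genome of Arabidopsis, and many counts in these tables stood under its loci. In RefSeq's TAIR10.1 assembly it lies at chr2:3239038-3509765, where matches to the mitochondrial genome of 367808 bases covered 269.6 kb at a mean identity of 99.912%. Those matches held 72.2% of the mitochondrial genome, and 22 of the 33 protein-coding sequences that RefSeq annotates there lay inside them, 8 outside and 3 in part. Of 7 coding sequences compared between the genome and its copy base by base, all were identical from end to end. The first 60 bases of atp1 (ATP synthase subunit 1) and cob (apocytochrome b) are printed to show this, with the start codon in capitals. The atp1 letters stand on the minus strand of the mitochondrial genome at positions 68562 to 68621 and on the plus strand of the copy at chr2:3362505-3362564. The cob letters stand on the minus strand of the mitochondrial genome at positions 182799 to 182858 and on the plus strand of the copy at chr2:3450863-3450922. Both places hold the same letters.
atp1: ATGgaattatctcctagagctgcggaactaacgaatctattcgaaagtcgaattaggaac
cob: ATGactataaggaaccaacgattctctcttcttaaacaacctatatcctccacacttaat

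Reads from such stretches cannot be told apart by sequence, and the way the authors' counting assigned them is not given in the sources used here. Loci in the copy held between 27.5% and 44.8% of the summed mitochondrial and copy counts of a library. This part was 43.5%, 42.3% and 44.8% in wild type and lower in every mutant library. It was 40.7%, 36.7% and 36.4% in gun1, 30.7%, 33.1% and 34.5% in fug1, and 30.4%, 27.5% and 35.2% in gun1 fug1. Levels and shares under mitochondrial IDs alone depend on this split, so some are also given with the copy counted in. RefSeq's notes pair 46 of these loci with 45 mitochondrial IDs, and in 34 of the 46 pairs the chromosome 2 locus had more counts than the mitochondrial ID. For apocytochrome b (ATMG00220), the cytochrome subunit of complex III, the mitochondrial ID had 0 to 3 counts per library while AT2G07727 on chromosome 2 had 302 to 9487. A low count at a mitochondrial ID therefore does not say that the transcript was scarce. For F0 subunits 6-1 (ATMG00410) and 8 (ATMG00480) the copies had 0 counts in all 12 libraries.

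**Figure D1:**
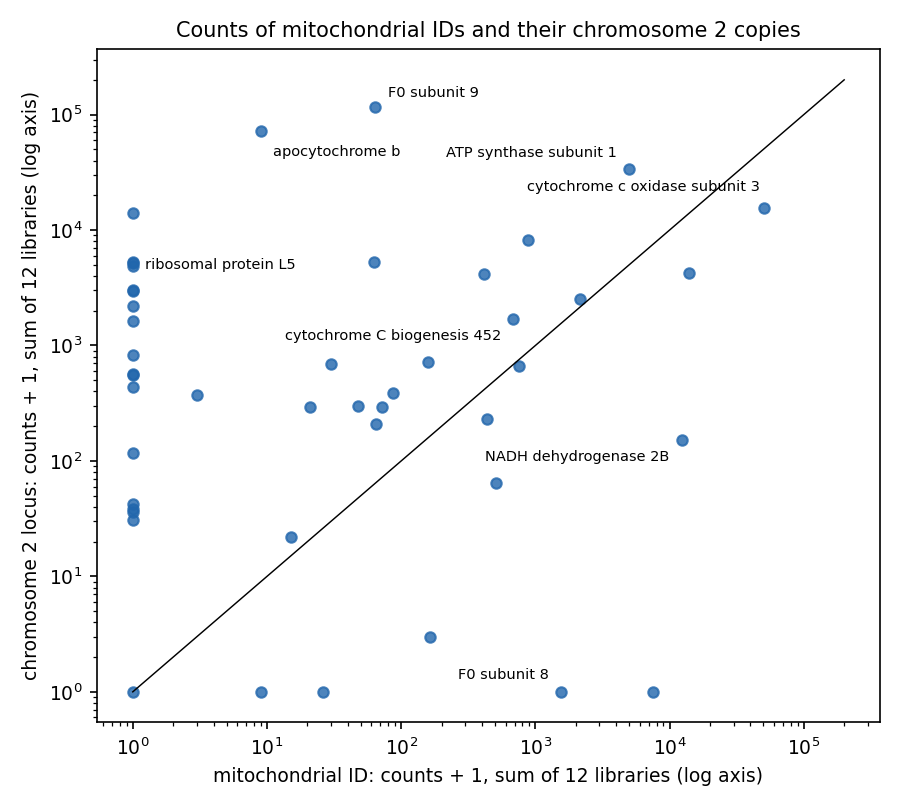
Counts of each mitochondrial ID (x axis) and of the chromosome 2 locus that RefSeq notes pair with it (y axis), both as counts + 1 summed over the 12 libraries on log axes; each point is a pair and the line marks equal counts. In 34 of the 46 pairs the chromosome 2 locus had more counts, apocytochrome b and F0 subunit 9 among them.

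The mitochondrion-encoded share of all counts was higher in every gun1 and fug1 library than in any wild-type library. It was 0.533%, 0.521% and 0.629% in gun1 libraries and 0.498%, 0.469% and 0.454% in fug1 libraries, against 0.401%, 0.389% and 0.449% in wild type. In gun1 fug1 it was 0.815%, 1.05% and 0.0306%, the last in the library that stands apart. The mean was 0.561 ± 0.0594% in gun1, 0.473 ± 0.0227% in fug1 and 0.631 ± 0.533% in the double mutant, against 0.413 ± 0.0316% in wild type (SD, n = 3 each). The differences from wild type were 0.148 percentage points in gun1, 0.0604 in fug1 and 0.218 in the double mutant, with p = 0.1, 0.1 and 0.5 in two-sided exact permutation tests. With 3 libraries against 3, the smallest p that this test can give is 0.1. When the chromosome 2 copy was counted with the mitochondrial genes, the fug1 difference turned to -0.0291 percentage points (exact permutation p = 0.8), while the gun1 difference was 0.171 (exact permutation p = 0.1). Leaving out 1 library at a time gave a gun1 fug1 difference between 0.00978 and 0.519, the highest without the third gun1 fug1 library and the lowest without the second.

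Plastid transcripts filled most of each library. They took 75.6% of counts in gun1, 82.7% in fug1 and 65.1% in the double mutant on average, against 70.7% in wild type, and without the third library 70.9% in gun1 fug1. Of the counts outside plastid-encoded genes, mitochondrion-encoded genes took 2.15%, 2.23% and 2.52% in gun1, and 2.76%, 3.01% and 2.48% in fug1, against 1.27%, 1.33% and 1.67% in wild type. The gun1 fug1 libraries had 2.80%, 3.59% and 0.0657%. On this scale the mean was 1.62 times that of wild type in gun1 and 1.94 times in fug1 (exact permutation p = 0.1 for each, n = 3 each, no overlap of libraries). The gun1 fug1 mean was 1.51 times that of wild type with all 3 libraries (exact permutation p = 0.6) and 2.25 times without the third (exact permutation p = 0.2, the smallest that 2 libraries against 3 can give). With the copy counted in, the ratios were 1.47 in gun1 and 1.62 in fug1. In gun1 fug1 the ratio was 1.20 with all 3 libraries (exact permutation p = 0.9) and 1.78 without the third (exact permutation p = 0.2).

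**Figure D2:**
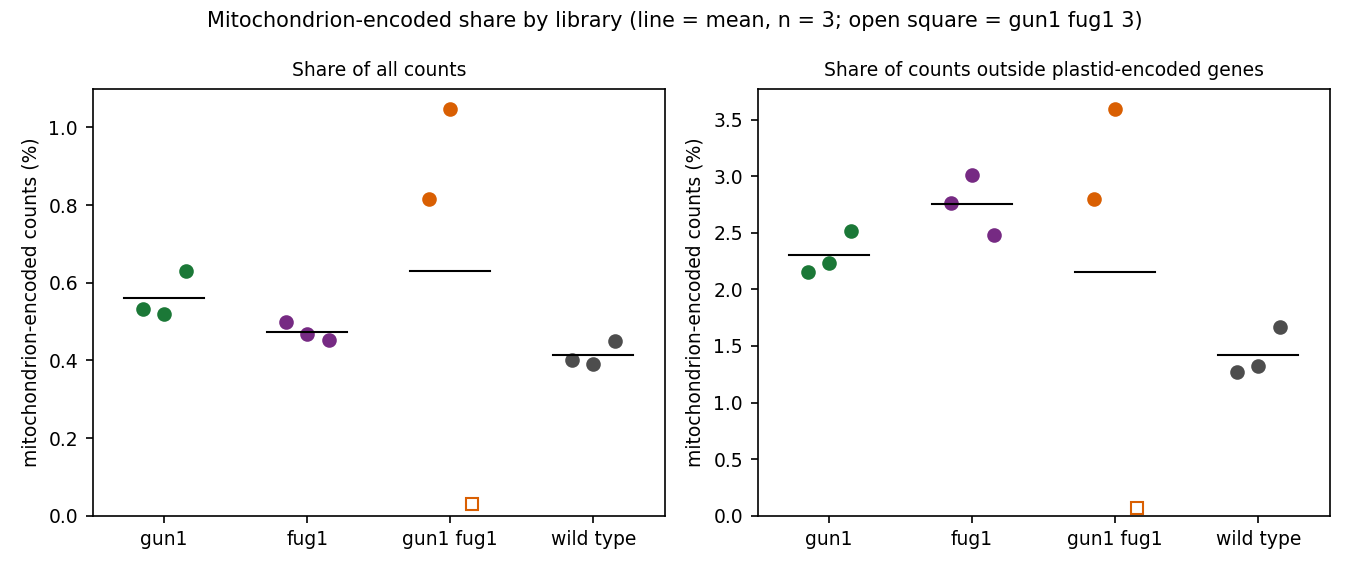
Mitochondrion-encoded counts as a percent of all counts (left) and of counts outside plastid-encoded genes (right) in each library, with genotypes along the x axis and a line at each mean of 3. The gun1 and fug1 libraries lie above all wild-type libraries in both panels, and the open square marks the third gun1 fug1 library, at 0.0306% of all counts and 0.0657% of counts outside plastid-encoded genes.

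Gene by gene, with libraries scaled on all genes, more mitochondrial transcripts were called higher than lower in each mutant. The edgeR quasi-likelihood test over all genes could be run on 54 mitochondrial genes, 53 of those above the count limit plus ATMG01370. In gun1, 21 of them were called higher and none lower, where 5.94% of all 15371 genes tested were called in either direction, 541 of them higher. In fug1, 32 were called higher and 2 lower, where 17.8% of all genes were called, 1528 of them higher. In gun1 fug1, 38 were called higher and 2 lower, where 21.9% of all genes were called, 1843 of them higher. The median log2 fold change over the 54 was 0.92 in gun1, 1.15 in fug1 and 1.46 in the double mutant, beside 0.02, 0.00 and -0.03 over all genes. The highest values were 1.69 (ATMG00180, gun1), 2.21 (ATMG00020, fug1) and 2.87 (ATMG01390, gun1 fug1), and 3, 5 and 5 of the 54 were negative.

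These counts depend on single libraries and on the scaling. Leaving out 1 library at a time gave 6 to 32 calls in gun1, 23 to 40 in fug1 and 30 to 43 in the double mutant. The gun1 count was 6, 8, 9 and 11 without wild type 1, wild type 2, gun1 3 and gun1 2, and 32 without the third gun1 fug1 library. Without that library fug1 had 37 higher and 3 lower and gun1 fug1 had 40 higher and 2 lower, where 9.81%, 22.9% and 25.4% of all genes were called in gun1, fug1 and gun1 fug1. Scaling by library totals, which plastid counts dominate, moved the median log2 fold change of all genes to -0.54 in gun1, -1.15 in fug1 and -1.16 in the double mutant. No mitochondrial gene was then called, where 0.00651%, 0.052% and 1.13% of all genes were called. In that fit 0, 0 and 0 of the mitochondrial genes had an unadjusted p under 0.05 with a rise, and 0, 2 and 2 with a fall. Over all genes tested, 571, 3222 and 3633 were under it in either direction. Without the third gun1 fug1 library the same scaling called 18 higher and 3 lower in gun1, 6 higher and 9 lower in fug1 and 34 higher and 4 lower in gun1 fug1, where 35.4%, 74.5% and 41.0% of all genes were called. With the chromosome 2 loci added to the genes they match, 28 of 75 tested were called higher in gun1, 42 higher and 2 lower in fug1, and 50 higher and 2 lower in gun1 fug1, where 5.96%, 17.8% and 21.8% of all genes were called.

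Complex IV, the cytochrome c oxidase that passes electrons to oxygen, had its most abundant named transcript in this set, ATMG00730 for subunit 3. Its level was 304, 384 and 395 scaled CPM in gun1, 511, 487 and 427 in fug1 and 537, 584 and 174 in gun1 fug1, against 150, 154 and 231 in wild type. All gun1 and fug1 libraries were above all wild-type libraries, while the third gun1 fug1 library lay among them. The log2 fold change was 1.41 ± 0.33 in fug1 (SE, adjusted p = 0.00656, edgeR) and 1.28 ± 0.33 in gun1 fug1 (adjusted p = 0.00863, edgeR), and in gun1 it was 1.02 ± 0.33 and missed the threshold (adjusted p = 0.0681, edgeR). The fug1 call ended without wild type 1 or wild type 2 (log2 1.28 and 1.29, adjusted p = 0.0575 and 0.0617, edgeR), and the gun1 fug1 call without gun1 fug1 1 or 2 or wild type 1 or 2 (adjusted p up to 0.0712, edgeR). With the copy added, the log2 fold changes were 1.07, 1.43 and 1.30 in gun1, fug1 and gun1 fug1. ATMG01280, for a protein with the transmembrane domain of subunit II, had lower levels under its mitochondrial ID and smaller errors. It was at 7.43, 6.69 and 5.66 scaled CPM in gun1, 6.38, 6.91 and 7.65 in fug1 and 9.10, 9.94 and 14.4 in gun1 fug1, against 2.81, 2.85 and 4.02 in wild type, with no overlap. Its rise was log2 1.04 in gun1, 1.12 in fug1 and 1.65 in the double mutant (adjusted p = 0.00701, 0.0021 and 3.88e-05, edgeR), and the gun1 call ended without wild type 1 or 2 (adjusted p = 0.0697 and 0.0733, edgeR). These ATMG01280 values are for the ID alone, which held 9.77% of the summed counts of the ID and its copy. The copy, AT2G07695, had 58 to 995 counts per library, against 12 to 120 under the ID.

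Complex I, the NADH dehydrogenase at the entry of the respiratory chain, was represented among the named genes by ATMG01320, NADH dehydrogenase 2B. Its level was 72.1, 84.6 and 84.7 scaled CPM in gun1, 128, 131 and 103 in fug1 and 145, 150 and 74.4 in gun1 fug1, against 39.7, 41.6 and 40.8 in wild type. Every mutant library was above every wild-type library, and the wild-type libraries lay close together. The log2 fold change was 0.98 ± 0.24 in gun1, 1.57 ± 0.24 in fug1 and 1.62 ± 0.25 in the double mutant (SE, adjusted p = 0.0182, 0.000281 and 9.1e-05, edgeR). The gun1 call ended without gun1 2, gun1 3 or any 1 of the wild-type libraries (log2 0.92 to 0.98, adjusted p up to 0.13, edgeR).

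The ATP synthase, which makes ATP from the proton gradient, had named genes that moved in opposite directions in gun1 fug1. Subunits 8 and 6-1 of the membrane-bound F0 part rose there, and subunit 1 of the catalytic F1 part fell. Of the IDs for subunit 9 of F0, ATMG01090 rose under its own ID, while ATMG01080 was not called once its chromosome 2 copy was counted in. F0 subunit 8 (ATMG00480) was at 10.4, 10.8 and 14.3 scaled CPM in gun1, 15.5, 17.1 and 14.7 in fug1 and 14.6, 16.3 and 7.20 in gun1 fug1, against 5.39, 3.69 and 5.41 in wild type. All mutant libraries were above all wild-type ones, and the gene rose by log2 1.29 ± 0.22 in gun1, 1.70 ± 0.22 in fug1 and 1.56 ± 0.23 in the double mutant (SE, adjusted p = 0.00117, 6.55e-05 and 6.02e-05, edgeR). ATPase subunit 6-1 (ATMG00410), part of the proton channel, had 50.6, 51.1 and 58.6 scaled CPM in gun1, 79.5, 73.0 and 70.2 in fug1 and 69.6, 82.1 and 31.2 in gun1 fug1, against 25.2, 24.7 and 35.0 in wild type. It rose by log2 0.92 in gun1, 1.39 in fug1 and 1.16 in the double mutant (adjusted p = 0.0326, 0.00111 and 0.00262, edgeR), and the gun1 call ended in 7 of the 12 fits without a library, those without wild type 1 or 2, gun1 2 or 3 or any 1 fug1 library (adjusted p up to 0.23, edgeR).

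ATP synthase subunit 9 forms the rotating ring and is carried by ATMG01090 and ATMG01080. ATMG01090 had 13.2, 16.9 and 17.6 scaled CPM in gun1, 19.3, 16.6 and 15.1 in fug1 and 22.5, 25.3 and 74.4 in gun1 fug1, against 7.25, 6.91 and 9.04 in wild type. The third gun1 fug1 library was the highest by far. The log2 fold change was 1.04 in gun1 (adjusted p = 0.0666, edgeR), 1.13 in fug1 (adjusted p = 0.0253, edgeR) and 2.18 in gun1 fug1 (adjusted p = 0.000424, edgeR). The last was 1.63 without the third library, and without that library the gun1 value was called too (log2 1.03, adjusted p = 0.000691, edgeR). The fug1 call ended without fug1 1 or 2 or wild type 1 or 2 (adjusted p up to 0.0884, edgeR). These ATMG01090 values are for the ID alone, which had 62 to 296 counts per library, beside 110 to 349 at its copy AT2G07777. ATMG01080 had 1 to 15 counts per library, and its call in gun1 fug1 (log2 1.83, adjusted p = 0.0497, edgeR) ended in 9 of the 12 fits without a library, which included those without gun1 fug1 2 or 3 and wild type 1 or 2 (adjusted p up to 0.437, edgeR). Its copy AT2G07671 had 103 to 14474 counts, and the sum of both gave log2 values of 0.65, 0.62 and -0.08 in gun1, fug1 and gun1 fug1, none of them called.

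ATP synthase subunit 1 (ATMG01190), the alpha subunit of the F1 part, was the named gene with the strongest fall in gun1 fug1. It had 47.7, 33.1 and 27.7 scaled CPM in gun1, 24.9, 29.3 and 23.8 in fug1 and 19.8, 17.4 and 8.40 in gun1 fug1, against 36.0, 36.9 and 47.1 in wild type. All fug1 and gun1 fug1 libraries were below all wild-type libraries, and gun1 overlapped with wild type. It fell in gun1 fug1 by 1.26 ± 0.25 on the log2 scale (SE, adjusted p = 0.00108, edgeR), while the log2 fold change was -0.62 ± 0.23 in fug1 (adjusted p = 0.0668, edgeR) and -0.14 ± 0.23 in gun1 (adjusted p = 0.761, edgeR). Without the third gun1 fug1 library the fug1 value of -0.62 passed the threshold (adjusted p = 0.0193, edgeR) and the gun1 fug1 value was -1.10 (adjusted p = 0.000787, edgeR). The copy AT2G07698 held most of the reads that match this gene, with 39 to 5915 counts. The sum of both was 378, 320 and 257 scaled CPM in gun1, 202, 226 and 190 in fug1 and 148, 132 and 55.2 in gun1 fug1, against 270, 282 and 293 in wild type. Its log2 fold change was 0.17 in gun1, -0.45 in fug1 and -1.31 in the double mutant, the last called (adjusted p = 0.00244, edgeR).

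Within the mitochondrial counts, subunit 1 took a smaller share in all 3 mutants. It took 1.22%, 0.72% and 0.598% of mitochondrion-encoded counts in gun1, 0.399%, 0.519% and 0.479% in fug1 and 0.305%, 0.209% and 0.198% in gun1 fug1, against 1.83%, 1.77% and 1.85% in wild type. No mutant library reached the lowest wild-type library. When each library was scaled by its own mitochondrial total, the log2 fold change was -1.10 in gun1, -1.96 in fug1 and -2.88 in the double mutant (adjusted p = 0.00175, 6.71e-06 and 1.58e-07, edgeR), and -1.10, -1.96 and -2.82 without the third gun1 fug1 library. With the copy added, the values on that scale were -0.69, -1.57 and -2.57, and each was called (adjusted p = 0.0291, 7.16e-05 and 6.85e-07, edgeR).

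On that within-mitochondrion scale most other genes did not differ from wild type by more than the test could resolve. Subunit 3 of cytochrome c oxidase had log2 values of 0.04 in gun1, 0.08 in fug1 and -0.30 in the double mutant, and NADH dehydrogenase 2B had -0.03, 0.20 and 0.05. Of the 54 genes, 0 were called higher and 3 lower in gun1, 0 higher and 10 lower in fug1, and 4 higher and 13 lower in gun1 fug1, where 66.3%, 79.7% and 85.4% of all genes tested were called, most of them nuclear genes that were lower relative to the mitochondrial total. With so many genes called, the adjustment changed little on this scale. At an unadjusted p under 0.05, 0 were higher and 4 lower in gun1, 0 and 11 in fug1, and 6 and 13 in gun1 fug1. Without the third gun1 fug1 library, 1 was called higher and 6 lower in gun1, 1 and 13 in fug1, and 4 and 15 in gun1 fug1, where 70.6%, 81.8% and 87.8% of all genes were called. The 3 lower in gun1 were ATMG00080, ATMG00090 and ATMG01190, and the other two mutants had all 3 lower as well, in comparisons that share the wild-type libraries. The name or product of ATMG00080 and ATMG00090 is not paired with the ID in the sources used here. ATMG00080 took 0.496%, 0.235% and 0.238% of mitochondrion-encoded counts in gun1, 0.152%, 0.177% and 0.339% in fug1 and 0.233%, 0.125% and 0.113% in gun1 fug1, against 1.43%, 1.27% and 0.736% in wild type. Its log2 fold change relative to the mitochondrial total was -1.82, -2.36 and -2.74 in gun1, fug1 and gun1 fug1, and that of ATMG00090 was -1.85, -2.34 and -2.09.

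**Figure D3:**
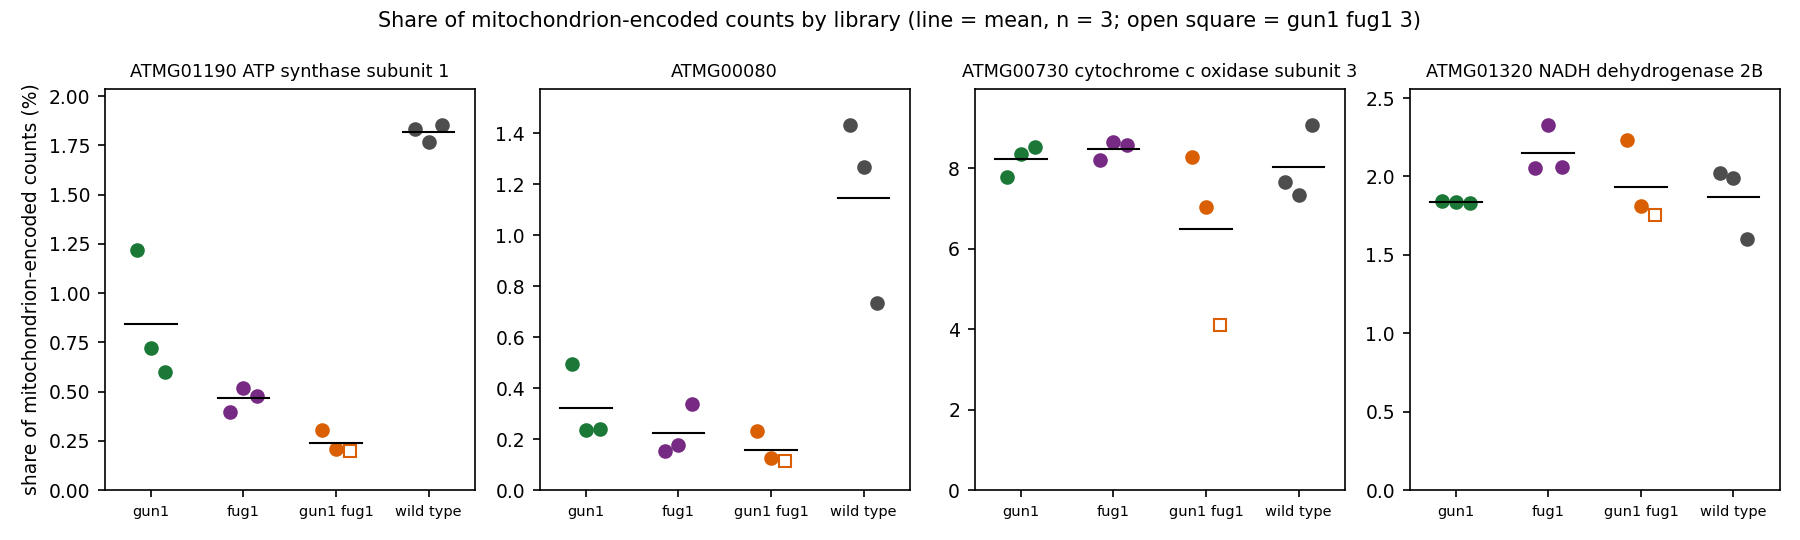
Share of mitochondrion-encoded counts (percent) taken by 4 genes in each library, with genotypes along the x axis, a line at each mean of 3 and an open square for the third gun1 fug1 library. ATMG01190 and ATMG00080 lie lower in all mutant libraries than in wild type, while cytochrome c oxidase subunit 3 overlaps with wild type. NADH dehydrogenase 2B overlaps with wild type in gun1 and gun1 fug1, and its fug1 libraries lie just above all wild-type libraries.

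Scaled on all genes, the same 2 IDs were the only ones called lower in fug1. ATMG00080 had between 9.51 and 16.8 scaled CPM in fug1 and 15.1, 10.4 and 4.80 in gun1 fug1, against 28.1, 26.5 and 18.7 in wild type, and fell by 1.00 in fug1 and 1.06 in gun1 fug1 on the log2 scale (adjusted p = 0.0233 and 0.018, edgeR). ATMG00090 fell by 0.94 in fug1 (adjusted p = 0.0231, edgeR), with 26.9, 24.1 and 25.8 scaled CPM against 58.5, 62.4 and 26.2 in wild type, so 1 wild-type library lay within the range of the mutant. In gun1 both had log2 values of -0.83 and were not called (adjusted p = 0.0888 for ATMG00080 and 0.0752 for ATMG00090, edgeR). The ATMG00080 calls ended without fug1 1 or 2 or wild type 1 or 2 in fug1 and without gun1 fug1 2 or wild type 1 or 2 in gun1 fug1 (adjusted p up to 0.104, edgeR). The ATMG00090 call ended without any 1 fug1 library or wild type 1 or 2 (adjusted p up to 0.124, edgeR).

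Of the named genes for the attachment of heme to cytochrome c, ATMG00180 rose in all 3 mutants and ATMG00960 in fug1 and gun1 fug1. ATMG00180, noted as a cytochrome C biogenesis gene, had 4.61, 4.89 and 5.43 scaled CPM in gun1, 5.30, 7.15 and 6.49 in fug1 and 8.72, 10.5 and 0 in gun1 fug1, against 1.66, 1.27 and 1.67 in wild type. The 0 is in the third gun1 fug1 library, whose 3530 mitochondrion-encoded counts allow a share of up to 0.085% at a count of 0, above the wild-type mean share of 0.0703%, and such limits cover counting error only. The gene rose by log2 1.69 ± 0.32 in gun1, 2.03 ± 0.32 in fug1 and 2.46 ± 0.32 in the double mutant (SE, adjusted p = 0.00332, 0.000349 and 2.42e-05, edgeR), and with its copy AT2G07815 added by 0.92, 1.19 and 1.76, each called. ATMG00960 (cytochrome C assembly protein) had 3.30, 2.40 and 2.99 scaled CPM in gun1, 3.40, 4.88 and 4.55 in fug1 and 6.60, 6.22 and 2.40 in gun1 fug1, against 2.38, 1.74 and 1.90 in wild type. It rose by log2 1.09 in fug1 and 1.57 in gun1 fug1 (adjusted p = 0.00843 and 0.000326, edgeR), and the fug1 call ended without wild type 2 (log2 0.96, adjusted p = 0.0623, edgeR). In gun1 its value was 0.53 (adjusted p = 0.254, edgeR).

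ATMG00560, noted as a nucleic acid-binding protein with an OB fold, was among the more abundant named genes, at 91.1, 119 and 101 scaled CPM in gun1, 123, 111 and 102 in fug1 and 172, 174 and 126 in gun1 fug1, against 40.1, 45.8 and 45.8 in wild type. The rise was log2 1.24, 1.36 and 1.85 in gun1, fug1 and gun1 fug1 (adjusted p = 0.00166, 0.000412 and 7.49e-06, edgeR), with no overlap of libraries, and its calls held in each fit without a library. Genes whose notes say ribosomal protein had few or no counts under their mitochondrial IDs. RefSeq also annotates ribosomal proteins L2, L16 and S3 in this genome, and the notes used here pair no ID with those names. ATMG00980, of the ribosomal protein S12/S23 family, had 4 to 24 counts per library and log2 values of 0.85, 0.32 and 0.98, none of them called. The last turned to -0.20 without the third gun1 fug1 library. The mitochondrial IDs for ribosomal proteins L5 (ATMG00210) and S4 (ATMG00290) had 0 counts in every library, while AT2G07725 and AT2G07734, paired with them on chromosome 2, held counts.

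Those genes can be followed only as sums of the mitochondrial ID and its copy. Apocytochrome b summed in this way had 512, 527 and 521 scaled CPM in gun1, 627, 632 and 525 in fug1 and 720, 744 and 362 in gun1 fug1, against 285, 282 and 369 in wild type. It rose by log2 0.93 ± 0.28 in fug1 and 0.97 ± 0.28 in gun1 fug1 (SE, adjusted p = 0.0242 and 0.0159, edgeR), and its value in gun1 was 0.74 (adjusted p = 0.116, edgeR). The gun1 and fug1 libraries did not overlap with wild type, and the third gun1 fug1 library, at 362, lay just under the highest wild-type library. The sums for L5, S4 and S7 did not follow. L5 had log2 values of 0.50, 0.13 and 0.41 in gun1, fug1 and gun1 fug1, S4 had -0.13, -0.48 and 0.58, and S7 (ATMG01270) had 0.04, -0.39 and -0.26, none of them called. Relative to the mitochondrial total, S7 was called lower in all 3 mutants, by 0.79 in gun1, 1.47 in fug1 and 1.57 in the double mutant on the log2 scale.

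**Figure D4:**
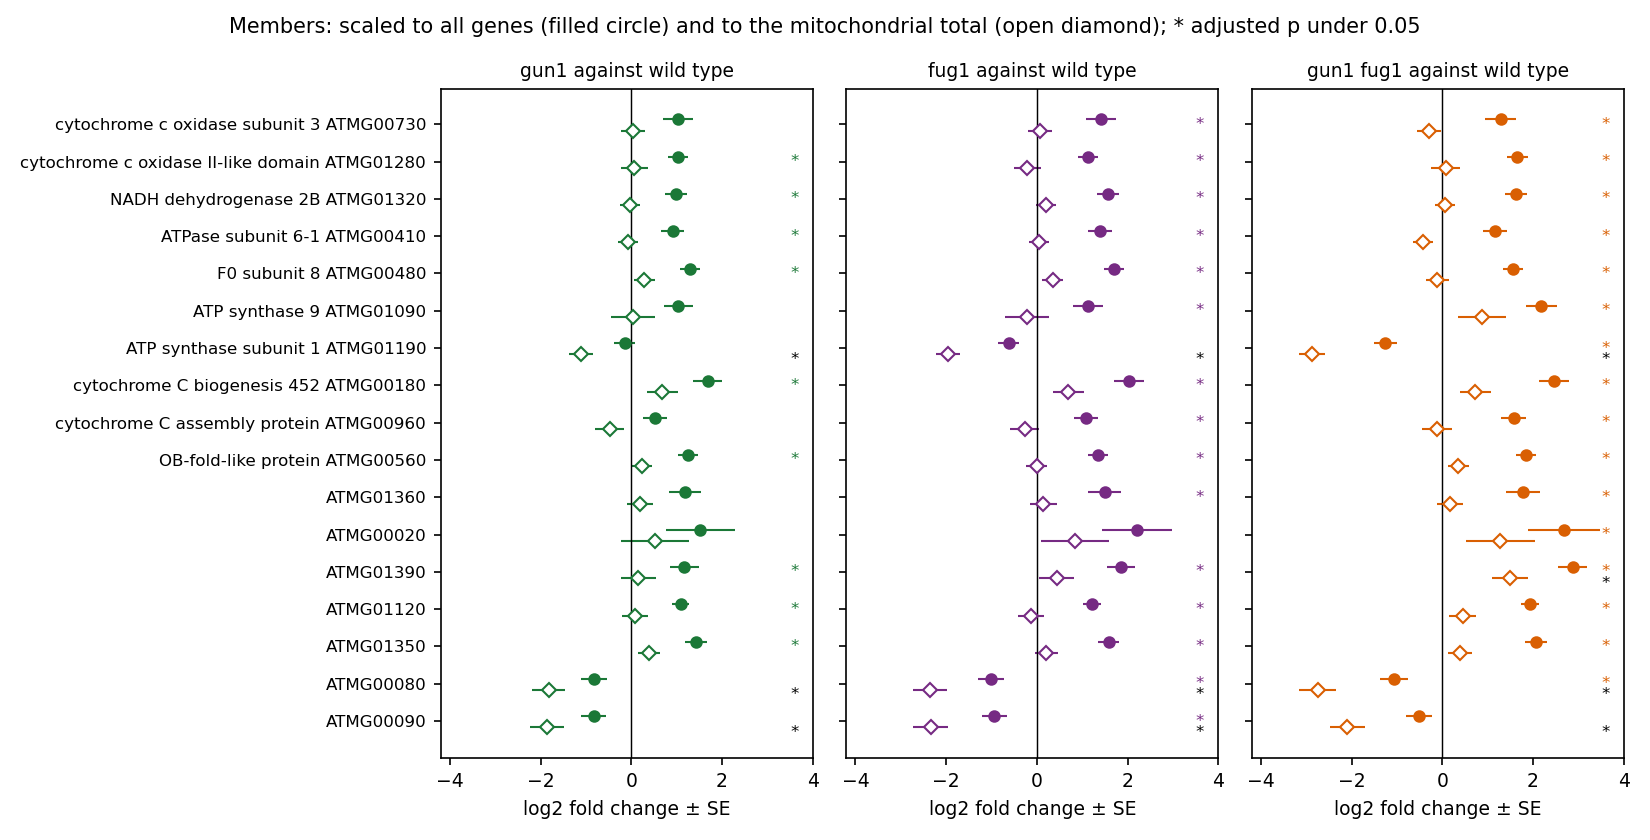
Log2 fold change ± SE of 17 named genes in gun1, fug1 and gun1 fug1 against wild type, scaled on all genes (filled circles) and by the mitochondrial total (open diamonds), with asterisks at an adjusted p under 0.05, coloured for the filled and black for the open symbols. Most filled circles lie right of 0 and most open diamonds near 0, while ATMG01190, ATMG00080 and ATMG00090 lie left of 0 on both scales.

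The most abundant mitochondrial IDs have no name paired with them in the sources used here. ATMG01360 alone took 30.7% of mitochondrion-encoded counts on average, with group means of 32.1 ± 1.03% in gun1, 31.1 ± 0.482% in fug1 and 31.6 ± 11.9% in the double mutant, against 28.1 ± 1.06% in wild type (SD, n = 3 each). Its level was 1211, 1518 and 1491 scaled CPM in gun1, 1905, 1758 and 1567 in fug1 and 2716, 2859 and 783 in gun1 fug1, against 572, 565 and 718 in wild type. All mutant libraries were above all wild-type ones. The rise was log2 1.50 in fug1 and 1.78 in gun1 fug1 (adjusted p = 0.00749 and 0.00154, edgeR), with 1.19 in gun1 (adjusted p = 0.0515, edgeR), and the fug1 call ended without wild type 1 or 2 (adjusted p = 0.0609 and 0.0676, edgeR).

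ATMG00020 took 9.32% of mitochondrion-encoded counts on average and was the most variable of the abundant IDs. It was at 323, 337 and 399 scaled CPM in gun1, 783, 528 and 401 in fug1 and 86.9, 1260 and 1032 in gun1 fug1, against 79.1, 157 and 133 in wild type. The first gun1 fug1 library lay within the wild-type range while the other two were the highest of all. Its log2 values were 1.52, 2.21 and 2.69 in gun1, fug1 and gun1 fug1, and only the last was called (adjusted p = 0.0406, edgeR). That call ended in 9 of the 12 fits without a library, which were those without any 1 wild-type or gun1 library, fug1 2 or gun1 fug1 2 or 3 (adjusted p up to 0.123, edgeR). ATMG00160, at 5.85% of mitochondrion-encoded counts, had log2 values of 0.91, 1.32 and 0.99 in gun1, fug1 and gun1 fug1. Those of ATMG00060, at 5.16%, were 1.01, 1.49 and 1.58. Both were called in fug1 and gun1 fug1, and the ATMG00160 call in gun1 fug1 ended without gun1 fug1 1 or 2 or wild type 1 or 2 (adjusted p up to 0.157, edgeR).

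ATMG01350 and ATMG01120 had the smallest p-values among the rises in gun1 and gun1 fug1 together with F0 subunit 8 and ATMG01390. ATMG01350 had 7.43, 12.8 and 12.2 scaled CPM in gun1, 13.6, 11.8 and 10.7 in fug1 and 15.7, 20.2 and 10.8 in gun1 fug1, against 4.00, 4.80 and 3.18 in wild type. The gene rose by log2 1.43, 1.58 and 2.07 (adjusted p = 0.000787, 0.000226 and 4.33e-06, edgeR), with no overlap. ATMG01120 had 17.6, 18.3 and 18.8 scaled CPM in gun1, 20.2, 19.1 and 20.9 in fug1 and 31.1, 28.5 and 43.2 in gun1 fug1, against 9.70, 7.70 and 8.31 in wild type. It rose by log2 1.09, 1.22 and 1.93 (adjusted p = 0.00165, 0.000334 and 1.01e-06, edgeR), and each of these calls held in every fit without a library. ATMG01390 rose by log2 1.17 in gun1, 1.86 in fug1 and 2.87 in the double mutant (adjusted p = 0.0287, 0.000681 and 4.82e-06, edgeR). It had 96.2, 115 and 86.1 scaled CPM in gun1, 233, 141 and 104 in fug1 and 229, 308 and 433 in gun1 fug1, against 35.4, 62.7 and 33.9 in wild type, and the gun1 call ended without gun1 2, gun1 3, wild type 1 or wild type 3 (adjusted p up to 0.179, edgeR). It also took a larger share of mitochondrion-encoded counts in gun1 fug1, with 3.53%, 3.72% and 10.2%, against 1.80%, 3.00% and 1.33% in wild type. Relative to the mitochondrial total it was called higher there (log2 1.50, adjusted p = 0.00209, edgeR), and at 0.83 without the third gun1 fug1 library (adjusted p = 0.0129, edgeR).

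Of 8 further IDs that the naming rule picked, 3 were called higher in gun1, 4 in fug1 and 5 in the double mutant, and none lower. Over all genes tested, 5.94%, 17.8% and 21.9% were called in either direction. The rule picks partly by small p-values in these same data, so these counts only describe the picked IDs. ATMG01170, at 3.68% of mitochondrion-encoded counts, rose by log2 1.12, 1.65 and 1.72 in gun1, fug1 and the double mutant (adjusted p = 0.0182, 0.000548 and 0.000176, edgeR), and ATMG00690, at 2.28%, by 1.14, 1.24 and 1.47 (adjusted p = 0.00778, 0.00183 and 0.000233, edgeR). Their gun1 calls ended without gun1 3 or wild type 1 or 2, and that of ATMG01170 also without gun1 2 (adjusted p up to 0.178, edgeR). ATMG00570 had values of 1.00, 1.43 and 1.23, all called, and its gun1 call ended in each fit without a library other than the third gun1 fug1 library, where it had 0 counts, and its gun1 fug1 call without gun1 fug1 1 or 2 or wild type 1 or 2 (adjusted p up to 0.231 and 0.0689, edgeR). ATMG00650, at 3.91%, was called in fug1 alone of the 3 comparisons (log2 1.52, adjusted p = 0.0327, edgeR), a call that ended without any 1 fug1 library, gun1 3 or wild type 1 or 2. ATMG00520 was called in gun1 fug1 (adjusted p = 0.00676, edgeR), and its log2 value was 1.30 without the third library and 0.28 with library totals as scaling, where it was not called. ATMG01110, noted as a mitovirus RNA-dependent RNA polymerase, had 1 to 17 counts per library and was called in gun1 fug1 (log2 1.97, adjusted p = 0.0351, edgeR), a call that ended without gun1 fug1 2 or wild type 1 or 2. ATMG00640, at 4.56%, and ATMG01200 were called in none of the 3.

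Set against gun1, the double mutant had 8 genes higher and 1 lower, where 1.61% of all genes were called higher and 1.48% lower, and the median over the 54 genes was 0.53 on the log2 scale beside -0.02 over all genes. ATMG01390 rose by log2 1.70 (adjusted p = 0.00537, edgeR), ATMG00110 by 1.15 (adjusted p = 0.0187, edgeR), and ATMG01120 by 0.84 (adjusted p = 0.0205, edgeR). The 1 gene that fell was ATP synthase subunit 1, by 1.11 ± 0.25 (SE, adjusted p = 0.0162, edgeR), and that call ended without gun1 fug1 2 or gun1 1 (adjusted p = 0.0553 and 0.087, edgeR). The ATMG00110 call ended without gun1 fug1 1 or 2 or gun1 1 or 2 (adjusted p up to 0.142, edgeR), and the ATMG01120 call without gun1 fug1 1 or gun1 1 or 2 (adjusted p up to 0.0984, edgeR). The count of calls ran from 1 without gun1 1 to 19 without the third gun1 fug1 library, with 3, 4, 5 and 5 without gun1 fug1 2, gun1 2, gun1 fug1 1 and wild type 2. Set against fug1, the double mutant had no gene called higher or lower, where 0.267% of all genes were called. At an unadjusted p under 0.05 edgeR had 15 higher and 1 lower, where 1741 of all 15371 genes were under it in either direction. DESeq2 called 5 of 91 mitochondrial genes tested higher and 0 lower, where 185 genes were called in all. The smallest p-values were those of ATMG00040 (log2 1.14, adjusted p = 0.0928, edgeR) and ATMG00050 (log2 1.22, adjusted p = 0.106, edgeR), and 2 genes were called without the third gun1 fug1 library and 2 without gun1 1.

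The step from fug1 to the double mutant can also be set against the step from wild type to gun1, as an interaction. The median interaction over the 54 genes was -0.61 on the log2 scale, beside -0.08 over all genes, and 1 gene was called, where 1.34% of all genes were called. It was F0 subunit 8 (ATMG00480), at -1.43 ± 0.31 (SE, adjusted p = 0.023, edgeR). Both single mutants were higher than wild type for this gene, by log2 1.29 in gun1 and 1.70 in fug1, and the double mutant was higher by 1.56. The call ended in 8 of the 12 fits without a library, which were those without any 1 fug1 library, gun1 2 or 3, gun1 fug1 1 or wild type 1 or 2 (adjusted p up to 0.121, edgeR), and it held without the third gun1 fug1 library (log2 -1.30, adjusted p = 0.0142, edgeR). Next by p came ATMG00580 (log2 -1.28, adjusted p = 0.0644, edgeR) and ATMG00660 (log2 -1.01, adjusted p = 0.0889, edgeR). The count of called interactions ran from 0 to 5, with 5 without gun1 1, 3 without gun1 fug1 3, 2 without wild type 3 and 0 without any of gun1 2, gun1 3, the fug1 libraries, gun1 fug1 1, wild type 1 and wild type 2.

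Nuclear genes for the same complexes were called in both directions. Of 70 nuclear genes listed for complexes I, III and IV, cytochrome c, the ATP synthase and mitochondrial RNA maturation, 64 were tested. In gun1, 1 was called higher and 1 lower, in fug1 11 and 9, and in gun1 fug1 10 and 10. These were 3.12%, 31.2% and 31.2% of the 64, where 5.94%, 17.8% and 21.9% of all genes were called in either direction. Without the third gun1 fug1 library there were 8 higher and 1 lower in gun1, 16 and 9 in fug1, and 14 and 11 in gun1 fug1, where 9.81%, 22.9% and 25.4% of all genes were called. Over all fits without a library the calls in both directions together numbered 0 to 9 in gun1, with 0 without gun1 2 or 3 or wild type 1 or 2, 4 without gun1 1 and 1 without fug1 2, gun1 fug1 1 or 2 or wild type 3. They numbered 3 to 25 in fug1, with 3, 6, 7, 8 and 10 without wild type 2, wild type 1, fug1 1, fug1 3 and fug1 2. In gun1 fug1 they numbered 8 to 25, with 8 without gun1 fug1 1 or wild type 2, 10 without gun1 fug1 2 and 11 without wild type 1.

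For complex I, 1 of 21 was called higher and 4 lower in fug1, and 1 higher and 6 lower in gun1 fug1, where 17.8% and 21.9% of all genes were called, with median log2 values of 0.02 and -0.19. In gun1 none was called, and 2 were called higher without the third gun1 fug1 library, which also gave 3 higher in fug1 and 2 in gun1 fug1. The count lower was 1 without fug1 3 or wild type 2 and 2 without fug1 1 or 2 in fug1, and 3 without gun1 fug1 1 in gun1 fug1, where it was 4 without gun1 fug1 2 or wild type 2. AT5G11770, the 20 kDa subunit, rose by log2 1.06 in fug1 and 1.19 in gun1 fug1 (adjusted p = 0.00401 and 0.00128, edgeR). GAMMA CA2, a carbonic anhydrase-like subunit of complex I, fell by 1.07 in fug1 (adjusted p = 0.00223, edgeR), and AT5G47890, the B8 subunit, fell by 1.58 in gun1 fug1 (adjusted p = 0.00126, edgeR). Each of these calls held in every fit without a library.

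For complex III and cytochrome c, 1 of 15 was called higher in gun1, 4 in fug1 and 3 in the double mutant, with 0, 0 and 2 lower, where 5.94%, 17.8% and 21.9% of all genes were called. The median log2 values were 0.31, 0.41 and 0.11. Without the third gun1 fug1 library 2, 6 and 6 were higher and 0, 0 and 2 lower. In fug1 the count was 0 without fug1 1 or wild type 1 or 2, 1 without fug1 2 or 3 and 2 without gun1 2 or wild type 3. In gun1 fug1 no gene was called without gun1 fug1 1 or wild type 2, and 1 higher and 1 lower without gun1 fug1 2 or wild type 1. There 2 higher and 1 lower were called without gun1 2, 1 higher and 3 lower without wild type 3, and the count lower was 1 without fug1 2. In gun1 the 1 was AT5G05370, a subunit 8 gene (log2 1.08, adjusted p = 0.0467, edgeR), and that call ended in 8 of the 12 fits without a library, those without any 1 wild-type library, gun1 2 or 3, gun1 fug1 1 or 2 or fug1 2. For complex IV, 3 of 7 were called higher in fug1 and 2 in gun1 fug1, with none lower, where 17.8% and 21.9% of all genes were called, and the median log2 values were 0.06 and -0.28. In gun1 none was called, and 1 was higher without the third gun1 fug1 library. None was called in fug1 without fug1 1 or 3 or wild type 1 or 2, or in gun1 fug1 without gun1 fug1 1 or wild type 1 or 2. The count was 1 in fug1 without wild type 3, and 1 in gun1 fug1 without gun1 fug1 2, fug1 3 or wild type 3. AT5G61310, of the subunit Vc family, rose by log2 1.52 in fug1 and 1.65 in gun1 fug1 (adjusted p = 0.0199 and 0.0103, edgeR), calls that ended without fug1 1 or 3 or wild type 1 or 2 in fug1 (adjusted p up to 0.101, edgeR) and without gun1 fug1 1 or wild type 1 or 2 in gun1 fug1 (adjusted p up to 0.0577, edgeR).

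Nuclear genes for the ATP synthase split in both directions, with 3 of 9 higher and 3 lower in fug1 and 3 higher and 1 lower in gun1 fug1, where 17.8% and 21.9% of all genes were called, and median log2 values of 0.46 and -0.13. In gun1, 0 were higher and 1 lower, where 5.94% of all genes were called, but 3 were higher without the third gun1 fug1 library and 2 without gun1 1. In fug1 only 1 was higher without wild type 1 and 0 without wild type 2, with 1 lower in both fits and without fug1 2. In gun1 fug1 1 was higher without gun1 fug1 1 or 2 or wild type 1 or 2, and 2 were lower without the third gun1 fug1 library, gun1 1 or gun1 3. AT5G08680, for a catalytic-type subunit with close paralogs between which reads may be split, rose by log2 1.01 in fug1 and 1.06 in gun1 fug1 (adjusted p = 0.00413 and 0.00204, edgeR), and the fug1 call ended without wild type 2 (adjusted p = 0.053, edgeR). MGP1, an F0 subunit gene, fell by 0.71 in gun1 and 0.87 in fug1 (adjusted p = 0.0186 and 0.00269, edgeR), and the gun1 call ended without gun1 2 or 3 or wild type 1 or 2 (adjusted p up to 0.101, edgeR). AT1G51650, for the epsilon chain, fell by 1.57 in gun1 fug1 (adjusted p = 0.00122, edgeR). Of 12 tested genes for mitochondrial transcription and RNA maturation, 2 were lower in fug1 and 1 higher and 1 lower in gun1 fug1, shares near or under the 17.8% and 21.9% of all genes called. In fug1 none was lower without gun1 2 or any 1 fug1 or wild-type library, and 1 without gun1 fug1 1 or 2. The gene higher in gun1 fug1 was AT3G22310 (PMH1), a putative mitochondrial RNA helicase (log2 1.52, adjusted p = 0.0423, edgeR), and that call ended in 7 of the 12 fits without a library, those without gun1 fug1 2 or 3, any 1 fug1 library or wild type 1 or 2 (adjusted p up to 0.156, edgeR). AT1G74350, an intron maturase of the group that splices mitochondrial introns, fell by 2.46 in gun1 fug1 (adjusted p = 0.00486, edgeR), a call that ended without gun1 fug1 2 (adjusted p = 0.0672, edgeR). Its value in fug1 was -1.40 (adjusted p = 0.0469, edgeR), which ended in 9 of the 12 fits without a library.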

How the data were processed

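RNA-seq of 12 seedling libraries (4 genotypes, 3 libraries each) was used as deposited. The authors' deposited tables hold whole-number read counts per gene ID, 1 table per library, and FastQC, Trimmomatic, TopHat2 (version 2.1.1), featureCounts and the build TAIR10 are named in the submitters' processing notes. Settings for strand and for reads that map to several places are not given in the sources used here. Counts were fitted with edgeR 4.0.16 (TMM scaling, filterByExpr by genotype, robust quasi-likelihood F test) over 15371 genes and 12 libraries. Benjamini-Hochberg adjustment ran over all of those genes, and an adjusted p under 0.05 was called. For shares of counts, exact permutation tests (two-sided) were used. DESeq2 1.42.0, other scalings, other filters and fits without each library were the alternatives. The nuclear copy was located with BLAST 2.17.0 between RefSeq's TAIR10.1 chromosome 2 and mitochondrial sequence. RefSeq's sequence may differ from the one the authors mapped to, so only matches of at least 500 bases at 99% identity or more were used. The edgeR test was checked on simulated counts, with the same spread for every gene and library and changed genes in gun1 only. That check does not cover the other comparisons or a library whose genes vary more than in the rest. Genes named in the text were the 2 highest by share in each role group, the 5 highest overall and, in each comparison, the 3 smallest p-values in each direction. The role groups rest on an assignment of IDs that the sources used here do not give. It guided the choice of genes, and no name is printed from it. Nuclear genes named were the 2 smallest p-values per list. Names were taken only from RefSeq notes that carry the ID. The genes, lists and tests were chosen with earlier results of these data known. Nothing in the labels says that the libraries of a genotype came from separate cultures, so the p-values measure the spread between these libraries, which may be technical.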

Additional observations from a re-analysis of the deposited data

Results flagged for a closer look

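ATMG00480, the F0 subunit 8 gene, was picked out because the step that the fug1 allele made differed with the state of GUN1. The log2 interaction, (gun1 fug1 minus fug1) minus (gun1 minus wild type), was -1.43 ± 0.31 (SE, adjusted p = 0.023, edgeR quasi-likelihood test). It was -1.30 without the third gun1 fug1 library (adjusted p = 0.0142) and -0.74 relative to the mitochondrial total (adjusted p = 0.179). AT2G07727, the chromosome 2 locus whose sequence matches apocytochrome b, was picked out because it lies outside the mitochondrial IDs and reached 9487 counts in a library, while the mitochondrial ID for apocytochrome b had at most 3 counts. The wild-type libraries were also high at that locus, with 7182, 5353 and 6617 counts.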

How the results depend on the processing

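Leaving out 1 library at a time gave 6 to 32 called mitochondrion-encoded genes in gun1, 23 to 40 in fug1, 30 to 43 in gun1 fug1, 1 to 19 for gun1 fug1 against gun1, 0 to 2 for gun1 fug1 against fug1 and 0 to 5 for the interaction. The differences in share of counts ran from 0.114 to 0.168 percentage points in gun1, 0.048 to 0.0783 in fug1 and 0.00978 to 0.519 in gun1 fug1. Of 76 calls of named genes, 50 held in every such fit and 26 did not. Scaling by library totals gave 0 calls in each comparison with 12 libraries. With 11 libraries (chosen after seeing the data, as were all alternatives with 11 libraries or with the copies) it gave 21 in gun1 (18 higher), 15 in fug1 (6 higher and 9 lower), 38 in gun1 fug1 (34 higher), 16 for gun1 fug1 against gun1, 35 against fug1 and 9 for the interaction. The mitochondrial total as scaling gave 3, 10, 17 and 4 calls in gun1, fug1, gun1 fug1 and gun1 fug1 against gun1, and 7, 14 and 19 in the first 3 of these with 11 libraries. With the chromosome 2 copies added on that scale, the calls were 6, 14, 25 and 5, with 2 for the interaction, and 9 in gun1 and 21 in fug1 with 11 libraries. DESeq2 called 5 genes for gun1 fug1 against fug1 and 4 interactions, and no filter gave 4 and 4. Over all genes these calls numbered 185 and 474 with DESeq2, and 157 and 634 with no filter. The share difference in fug1 turned to -0.0291 with the copies counted.

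The main fit did not pair samples by library number. Libraries with the same number had correlations of -0.082 to 0.36 between their deviations from the genotype means, over 0.1 in 3 of 18 pairs, and other pairs had -0.389 to 0.167. Between gun1 and wild type, pairs with the same number had 0.31, 0.039 and 0.36. With the number as a replicate block, 2 interactions were called in place of 1, and the other counts were within 1.5 times. In gun1 the block gave 26 called mitochondrial genes in place of 21, and 1298 in place of 913 over all genes. Whether the number marks a shared batch was not tested.

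Log2 values of single genes that changed sign were not called in the alternative unless stated, and the cause was not tested. By library totals with 12 and 11 libraries, ATMG00960 was -0.022 and -0.030 in gun1 and -0.067 and -0.069 in fug1, ATMG01200 was -0.099 and -0.099 in gun1, ATMG00110 was -0.092 and -0.098 in gun1 and -0.24 and -0.24 in fug1, ATMG01280 was -0.025 and -0.019 in fug1, and ATMG01090 was -0.023 and -0.024 in fug1. On the same scale in fug1, ATMG00980 was -0.81 and -0.84, ATMG01110 was -0.28 and -0.29, ATMG00640 was -0.083 and -0.083, and ATMG00520 was -0.079 and -0.081. In gun1 fug1, ATMG00980 was -0.70 and -0.78, and ATMG01200 was -1.42 and -0.97, the last called (adjusted p = 0.000887, edgeR). For gun1 fug1 against fug1 with 11 libraries, ATMG01190 was 0.092, ATMG00070 was 0.31 and ATMG01220 was 0.0071, and the interactions of ATMG00580 and ATMG00660 were 0.11 and 0.28. Over the fits without 1 library, ATMG00980 ran from -0.20 (without gun1 fug1 3) to 1.86 in gun1 fug1, ATMG01200 from -0.38 (without gun1 fug1 3) to 0.68 in gun1 fug1, and ATMG01080 from -0.90 to 0.46 (without wild type 3) in fug1. With the copies added, ATMG01190 was 0.17 in gun1, and ATMG01080 was 0.62 in fug1, -0.076 in gun1 fug1 and -1.34 for the interaction. Relative to the mitochondrial total with 11 libraries, the gun1 fug1 values were -0.17 for ATMG01280, -0.11 for ATMG01090, 0.21 for ATMG00060, -0.43 for ATMG00520 and 0.0068 for ATMG00110. The planned share without ribosomal RNA was not run, since no source given pairs an ID with ribosomal RNA. Depth limits the third gun1 fug1 library most, where a count of 0 allows up to 0.085% of its mitochondrion-encoded counts.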
